A study of Arabidopsis thaliana with 12 samples.

Results

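The response of the ahl10-1 mutant of Arabidopsis thaliana to low water potential was measured in 6 of the study's 12 RNA-seq libraries, 3 of stressed and 3 of control seedlings, chosen by the genotype and treatment in their titles. ahl10-1 is a T-DNA insertion line in the AHL10 gene (Salk_073165) and is the only mutant line among the labels. Seedlings grew on vertical agar plates of half-strength medium without sugar, under continuous light. Controls were kept at -0.25 MPa. For the stress, 7-day-old seedlings were placed on agar whose water potential had been lowered to -0.7 MPa with polyethylene glycol, an osmolyte that draws water away from the root. Whole seedlings of both groups were collected 96 h after transfer, at day 11, from 3 independent experiments. The other 6 libraries, of wild-type Col-0 (WT) seedlings under the same treatments, entered the fit and served to test whether the response differed between genotypes. All 33602 genes of the files were measured, and 22604 with enough reads were tested.

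A plant cell that loses water accumulates abscisic acid (ABA). ABA binds PYR/PYL receptors, which then hold back the clade A protein phosphatases (PP2C). This frees SnRK2 kinases, which activate bZIP factors of the ABF group that bind promoters at elements with an ACGTG core. Targets of the pathway encode protective LEA proteins, dehydrins and enzymes of osmolytes such as proline. AHL10 belongs to the AT-hook motif nuclear localized proteins, which bind AT-rich DNA, and its protein is a known target of the phosphatase HAI1.

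Between 60606503 and 66420959 reads fell in genes per ahl10-1 library. On the first principal component, with 62.3% of the variance, the 3 stress libraries lay apart from the 3 control libraries. On the second, with 12.9%, control replicate 1 lay at -42.4, and control replicates 2 and 3 lay at 23.2 and 17.5. Stress replicates 1, 2 and 3 lay at -16.5, 1.23 and 17.0, so replicate 1 was lowest in both groups. Replicates of a group differed by more than sampling noise, with chi-square values of 22.1 to 106 per degree of freedom, so each was counted as a sample. Some results that change without control replicate 1 are given both ways below, and smaller shifts mostly are not. Values per library are CPM, read counts relative to the library total after scaling by edgeR's TMM factors, and stand in the order of replicates 1, 2 and 3. CPM are not divided by gene length and are compared between libraries only. A gene was called when its adjusted p in edgeR's quasi-likelihood test was under 0.05, with Benjamini-Hochberg adjustment over all tested genes. SE is the standard error of the log2 fold change. Of the 145 genes named by rule, 27 overlap another annotated gene, AHL10, P5CS1, COR15B, GOLS1, GOLS4, THI2.1, TIP2;1, AAO3, HSFA3, EXPA7, IAA3, CER2, PAO, ABF3, ABF4, LUX and the CESA4, CESA7 and CESA8 genes among them. Since the use of strand in counting is not given in the sources used here, the reads of such pairs cannot be told apart. Over 5% of reads were multi-mapped for 1 of the 145, PRR9.

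AHL10 (AT2G33620, chromosome 2) itself was lower in the mutant than in WT in every library and rose under stress. In ahl10-1 its level was 25.7, 22.3 and 21.3 CPM in control and 33.0, 27.9 and 28.9 CPM under stress (log2 fold change 0.37, SE 0.079, adjusted p = 0.0044). In WT it was 46.3, 46.8 and 46.1 CPM in control and 63.2, 63.2 and 65.4 CPM under stress. All 6 mutant libraries lay below all 6 WT libraries, as the genotype labels have it, although reads over the gene remained. The stress libraries of ahl10-1 lay above its control libraries. The reads were not resolved along the gene, so transcripts before and after the insertion cannot be told apart.

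In ahl10-1, 6277 genes were called, 27.8% of those tested. Of these, 3216 rose (14.2%) and 3061 fell (13.5%). The median change of called genes was 0.58 in size on the log2 scale, and 1649 genes (7.30%) changed at least 2-fold, 768 upward and 881 downward. Only 139 rose and 94 fell by 3 or more on the log2 scale. The stress and control libraries did not overlap for 9085 of the tested genes (40.2%), and 6056 of the tested genes (26.8%) were both called and without overlap. When the deposited RPKM values were tested with limma instead, 62.9% of 5850 calls were upward, against 51.2% of the calls from counts. The shares of 14.2% and 13.5% are the background for each count of a gene list below.

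**Figure D1:**
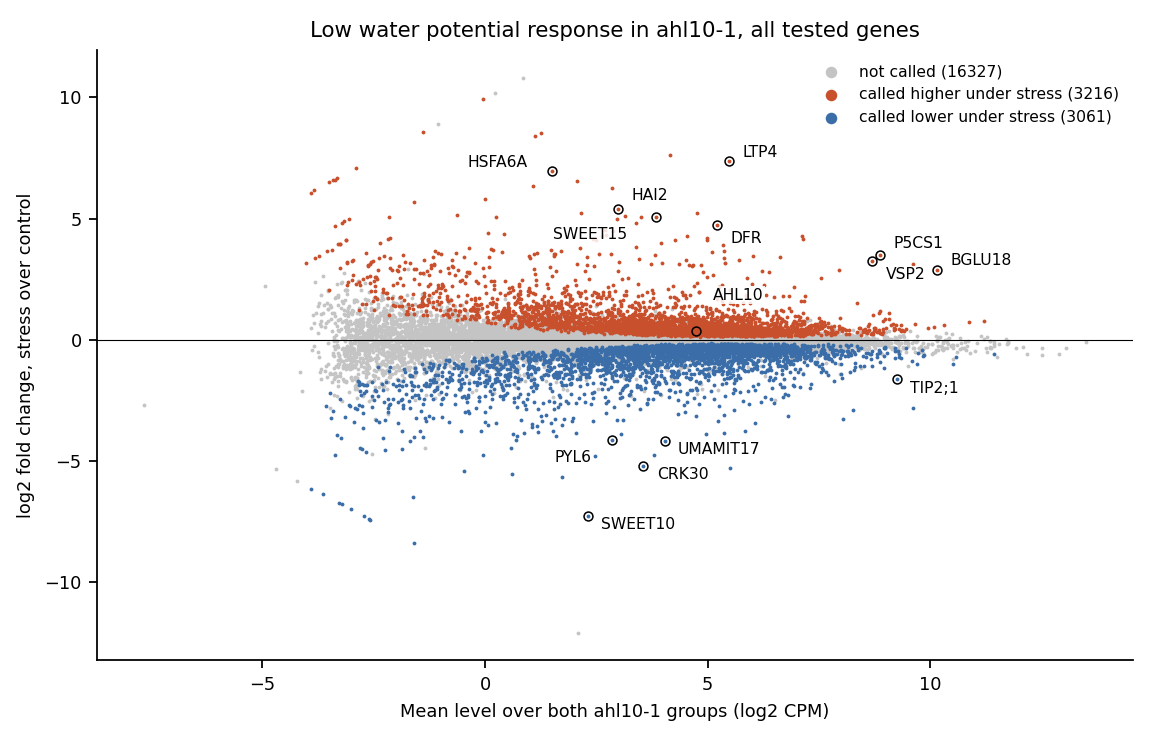
Change under low water potential in ahl10-1 (y axis, log2 fold change of stress over control) against mean level (x axis, log2 CPM) for the tested genes, each a point, with calls in colour. Ringed genes are described in the text. LTP4 and HSFA6A lie near 7 at the top, SWEET10 lies below -7, and AHL10 lies close to 0.

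The genes with the largest rises, among called genes with at least 5 CPM, were near silent in control seedlings. Transcripts of LTP4, which encodes a lipid transfer protein of the cell surface, stood at 0.372, 0.848 and 0.372 CPM in control and 121, 97.0 and 49.3 CPM under stress (log2 fold change 7.38, SE 0.62, adjusted p = 3.4e-05). The heat shock factor gene HSFA6A had 2, 4 and 2 reads in the control libraries and 0.0298, 0.0640 and 0.0372 CPM, against 9.46, 3.76 and 3.68 CPM under stress (log2 fold change 6.95, SE 0.71, adjusted p = 5.0e-05, and 6.35 without stress replicate 1). Both genes were highest in stress replicate 1. NATA1, which encodes an acetyltransferase of ornithine, was at 0.179, 0.0320 and 0.0372 CPM in control and 8.89, 6.13 and 9.76 CPM under stress (log2 fold change 6.55, SE 1.12, adjusted p = 0.0021). GPT2, a glucose 6-phosphate carrier of the plastid envelope, was at 0.417, 0.128 and 0.112 CPM in control and 10.5, 4.53 and 10.9 CPM under stress (log2 fold change 5.24, SE 0.65, adjusted p = 2.4e-04). The thionin gene THI2.1 was at 1.04, 0.208 and 0.205 CPM in control and 22.1, 13.2 and 16.5 CPM under stress (log2 fold change 5.10, SE 0.81, adjusted p = 0.0014). In all of these but LTP4 and HSFA6A, control replicate 1 held most of the control reads, and without it the log2 fold changes were 7.83, 6.14 and 6.37 for NATA1, GPT2 and THI2.1. The largest rise of all was that of AT2G16367, annotated as a transcribed pseudogene, from 0.372, 0.0960 and 0.0372 to 29.2, 35.3 and 41.9 CPM (log2 fold change 7.62, SE 0.56, adjusted p = 1.2e-05, and 8.97 without control replicate 1). AT3G27250 (log2 fold change 6.25, SE 0.39, and 6.85 without control replicate 1) and AT2G37870 (log2 fold change 5.25, SE 0.29) rose similarly far. The other members of this group of 10, HAI2 and SWEET15, belong to gene lists described below.

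The largest falls, chosen by the same rule, took genes close to silence. The sugar transporter gene SWEET10 was at 9.04, 12.4 and 8.18 CPM in control and 0.146, 0.0316 and 0 CPM under stress (log2 fold change -7.25, SE 0.58, adjusted p = 1.1e-05), with 10, 2 and 0 reads in the stress libraries. Without stress replicate 1 its fold change was -9.06 on the log2 scale. CRK30, a cysteine-rich receptor-like kinase, was at 13.1, 24.9 and 30.6 CPM in control and 0.497, 0.584 and 0.812 CPM under stress (log2 fold change -5.19, SE 0.41, adjusted p = 1.2e-05). UMAMIT17, of a family of amino acid transporters, was at 32.2, 27.2 and 33.4 CPM in control and 1.64, 1.55 and 2.05 CPM under stress (log2 fold change -4.15, SE 0.18, adjusted p = 2.3e-07). That each stress library lay below each control library follows from the rule. CYP71B22, a cytochrome P450 gene, fell by 4.75 (SE 0.53) on the log2 scale, from 20.6, 23.62 and 36.2 to 1.05, 0.521 and 1.42 CPM. The others of the 10 were PYL6, described with the receptors, and AT3G23550, AT3G16670, AT1G26250, AT1G26390 and AT1G15125, with log2 fold changes of -5.66, -5.29, -4.80, -3.97 and -3.89.

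Measured per length, the largest gains and losses were in abundant transcripts. BGLU18, whose enzyme releases ABA from its glucose ester, went from 111 ± 63.9 to 858 ± 41.8 RPKM (mean ± SD, n = 3). The metallothionein gene MT2A went from 558 ± 81.2 to 1286 ± 198 RPKM. The catalase gene AT1G20620 (CAT3) went from 747 ± 222 to 1325 ± 106 RPKM, and GRP7, an RNA-binding protein gene, from 1079 ± 235 to 1732 ± 410.2 RPKM. AT4G23670 went from 1397 ± 68.7 to 2462 ± 150.03 RPKM. The largest loss was that of AT2G45180, from 1777 ± 360.2 to 266 ± 19.0 RPKM. The light-harvesting gene LHCB1.4 went from 1708 ± 561 to 905 ± 161 RPKM and LHCA1 from 2450.2 ± 333 to 1714 ± 111 RPKM. The vacuolar aquaporin gene TIP2;1 went from 707 ± 124 to 243 ± 14.3 RPKM. The ferredoxin gene FED A went from 1182 ± 215 to 779 ± 105 RPKM. The calls for LHCB1.4, LHCA1, FED A and GRP7 rested on the libraries used. The call for FED A was lost without control replicate 2 or 3, without stress replicate 1 or 2, and when the 6 ahl10-1 libraries were fitted without WT, with adjusted p up to 0.13. GRP7 and LHCA1 were lost in that fit alone (adjusted p = 0.052 for both), and LHCB1.4 was lost without control replicate 3 or stress replicate 2 (adjusted p up to 0.085).

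The core of ABA signalling moved in opposite directions at its first steps: receptor genes fell and phosphatase genes rose. Of 14 PYR/PYL receptor genes 11 were tested, and 8 fell and 0 rose, with a median log2 fold change of -0.92 over the tested members, beside -0.00084 over all tested genes. PYL6 stood at 9.66, 16.6 and 14.7 CPM in control and 0.730, 0.837 and 0.794 CPM under stress (log2 fold change -4.11, SE 0.34, adjusted p = 1.2e-05). PYL5 was at 50.5, 36.7 and 57.8 CPM in control and 7.89, 6.78 and 8.46 CPM under stress (log2 fold change -2.65, SE 0.17, adjusted p = 2.4e-06). PYL4 was at 112, 131 and 150.2 CPM in control and 21.2, 24.7 and 31.0 CPM under stress (log2 fold change -2.35, SE 0.17, adjusted p = 4.2e-06). In these genes the highest stress library was far below the lowest control library. Smaller falls were measured for PYL8 (log2 fold change -1.31, SE 0.13, adjusted p = 3.3e-05) and PYR1 (log2 fold change -1.01, SE 0.11, adjusted p = 5.4e-05). PYL1, PYL2 and PYL9 also fell, with log2 fold changes of -0.92, -0.61 and -0.29. PYL7, at 25.4, 16.4 and 21.9 CPM in control and 19.3, 18.7 and 20.5 CPM under stress, PYL3 and PYL12 were not called, and PYL10, PYL11 and PYL13 had too few reads to be tested.

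Of the 9 clade A PP2C genes, whose products switch ABA signalling off, 7 rose and 0 fell, with a median of 1.15. HAI2 was nearly silent in control, at 0.536, 0.304 and 0.242 CPM, and stood at 19.3, 14.6 and 12.4 CPM under stress (log2 fold change 5.39, SE 0.27, adjusted p = 5.4e-07). HAI1 was at 6.19, 4.51 and 4.33 CPM in control and 62.8, 36.7 and 30.2 CPM under stress (log2 fold change 3.10, SE 0.31, adjusted p = 7.0e-05). Both ranked in the order of replicates 1, 2 and 3 from high to low under stress, with HAI1 in stress replicate 1 above either other stress library by more than 20 CPM. ABI2 (log2 fold change 1.34, SE 0.17, adjusted p = 1.6e-04), AHG3 (log2 fold change 1.15, SE 0.13, adjusted p = 7.6e-05) and HAB1 (log2 fold change 0.63, SE 0.098, adjusted p = 7.2e-04) changed less. ABI1 (0.85) and HAB2 (0.38) also rose. HAI3, at 0.536, 0.128 and 0.260 CPM in control and 1.11, 1.11 and 0.155 CPM under stress, and AHG1 were not called.

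The kinase and bZIP factor genes rose by small amounts. Of 9 members 7 rose and 0 fell, with a median of 0.40, and ABI5 alone changed at least 2-fold. ABI5, a bZIP factor best known from seeds and young seedlings, was at 1.41, 0.880 and 1.13 CPM in control and 3.77, 3.93 and 3.37 CPM under stress (log2 fold change 1.69, SE 0.21, adjusted p = 1.3e-04). ABF2 was at 32.1, 32.9 and 33.7 CPM in control and 59.8, 62.0 and 54.4 CPM under stress (log2 fold change 0.84, SE 0.079, adjusted p = 2.2e-05), and ABF3 (log2 fold change 0.60, SE 0.13, adjusted p = 0.0052), ABF4 (log2 fold change 0.32, SE 0.065, adjusted p = 0.0035) and SNRK2.6 (log2 fold change 0.40, SE 0.097, adjusted p = 0.0092), the kinase of guard cells also called OST1, rose less. SNRK2.3 (0.17) and AREB3 (0.045) were not called.

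**Figure D2:**
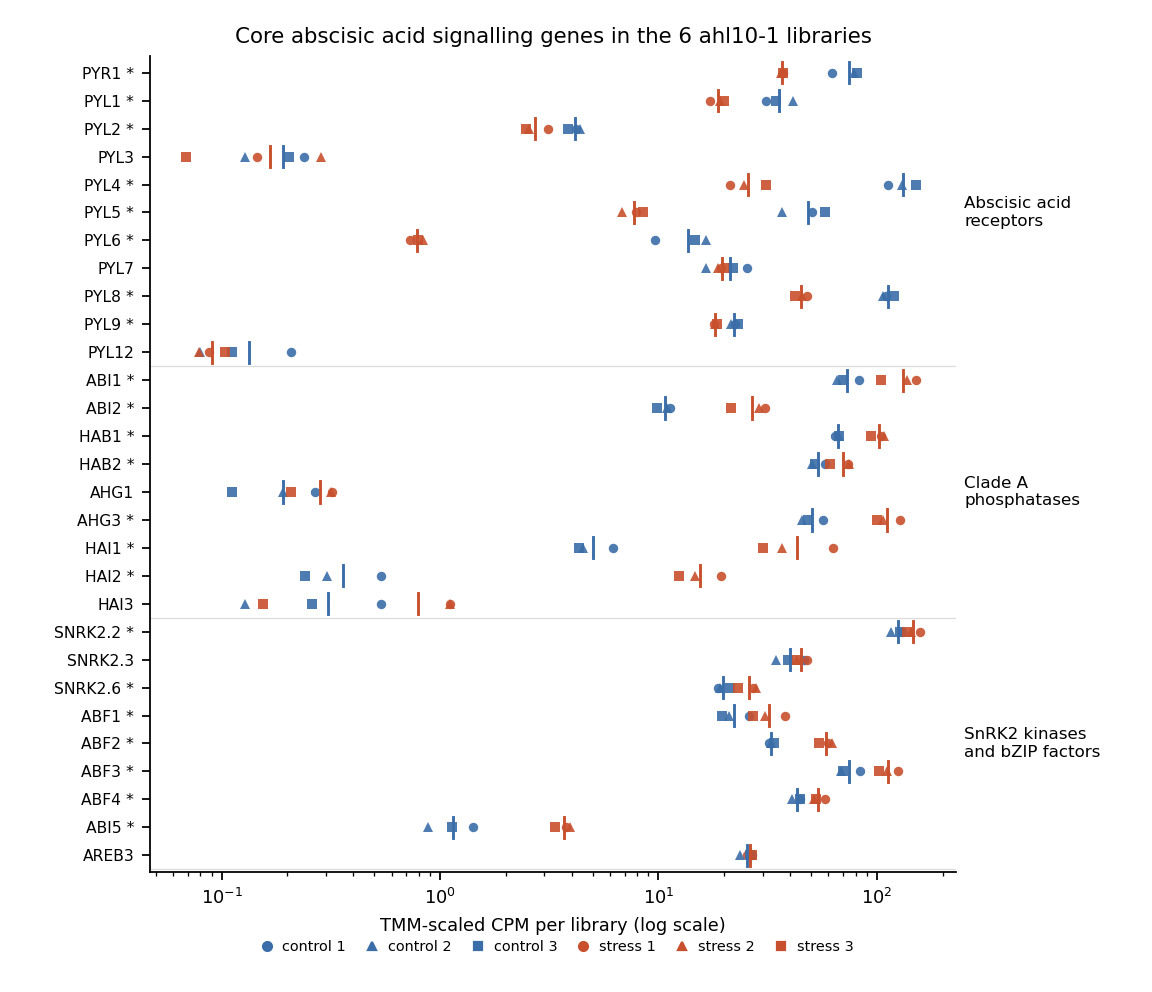
Level of each tested gene of the ABA core in the 6 ahl10-1 libraries (x axis, TMM-scaled CPM, log scale), control in blue and stress in orange, with the replicate by marker shape and the group mean as a bar. Called genes carry a star. The called receptors lie lower under stress, PYL6 farthest, and the called phosphatases lie higher, HAI2 and HAI1 farthest.

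Several genes of ABA synthesis and of ABA breakdown rose. Of 14 genes 13 were tested, and 6 rose and 0 fell (median 0.57). BGLU18 was at 429, 173 and 203 CPM in control and 1975, 1861 and 2169.7 CPM under stress (log2 fold change 2.90, SE 0.38, adjusted p = 3.2e-04), with control replicate 1 above both other control libraries. NCED3, the rate-limiting enzyme of ABA synthesis under water deficit, was at 2.35, 1.65 and 2.64 CPM in control and 10.6, 9.21 and 6.34 CPM under stress (log2 fold change 1.98, SE 0.43, adjusted p = 0.0065). Its relative NCED9 was at 0.179, 0.256 and 0.112 CPM in control and 0.876, 1.03 and 0.691 CPM under stress (log2 fold change 2.22, SE 0.47, adjusted p = 0.0043), and AAO3, the oxidase of the last step, rose little (log2 fold change 0.30, SE 0.068, adjusted p = 0.0061). The breakdown genes CYP707A1 (log2 fold change 1.11, SE 0.18, adjusted p = 7.8e-04) and CYP707A4 (0.87) rose as well. CYP707A3 did not pass the test, at 7.77, 3.30 and 10.5 CPM in control and 2.94, 3.10 and 3.06 CPM under stress.

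The promoters of these genes were read for the ACGTG core. In the window from 250 bases before to 50 bases after the annotated start (RefSeq, TAIR10.1), ACGTG on either strand was present in 24.6% of all annotated genes and in 28.1% of tested genes. The share was 36.4% among genes that rose, 46.6% among those that rose at least 2-fold, and 25.1% among those that fell. Among the gene lists the share was highest in the clock genes, of which 10 of 11 held it although as many fell as rose, and in the flavonoid genes, with 12 of 14. Of the protective genes 14 of 18 held it, of the PP2C genes 6 of 9, of the glucosinolate genes 7 of 11, of the receptors 5 of 14 and of the proline genes 2 of 9. The core of the dehydration response element, CCGAC, differed less between classes, at 15.8% of tested genes, 16.3% of those that rose and 13.4% of those that fell. Overlapping matches, as in CACGTG, were counted once. Below are the 250 bases before the start of 4 genes that rose strongly, 3 with several matches and LTP4 with no match in this window; capitals mark ACGTG or CCGAC on either strand. HAI2 lies on the minus strand at chr1:2282829-2283078, RD29B on the plus strand at chr5:21236771-21237020, DFR on the minus strand at chr5:17166033-17166282 and LTP4 on the minus strand at chr5:23925958-23926207, and all are written 5′ to 3′ along the gene.
HAI2: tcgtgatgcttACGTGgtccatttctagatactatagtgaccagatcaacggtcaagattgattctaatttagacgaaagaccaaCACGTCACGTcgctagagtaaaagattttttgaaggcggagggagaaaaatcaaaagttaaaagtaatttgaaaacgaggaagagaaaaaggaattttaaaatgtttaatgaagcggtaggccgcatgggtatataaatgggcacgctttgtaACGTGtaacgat
RD29B: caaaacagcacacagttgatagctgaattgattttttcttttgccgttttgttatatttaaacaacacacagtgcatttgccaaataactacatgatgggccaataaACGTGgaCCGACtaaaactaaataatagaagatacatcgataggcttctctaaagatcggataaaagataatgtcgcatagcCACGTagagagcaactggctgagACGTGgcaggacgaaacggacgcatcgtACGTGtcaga
DFR: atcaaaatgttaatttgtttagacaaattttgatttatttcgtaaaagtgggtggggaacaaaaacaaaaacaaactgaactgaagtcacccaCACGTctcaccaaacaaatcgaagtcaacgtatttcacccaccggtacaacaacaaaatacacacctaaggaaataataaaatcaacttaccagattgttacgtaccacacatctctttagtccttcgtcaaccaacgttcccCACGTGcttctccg
LTP4: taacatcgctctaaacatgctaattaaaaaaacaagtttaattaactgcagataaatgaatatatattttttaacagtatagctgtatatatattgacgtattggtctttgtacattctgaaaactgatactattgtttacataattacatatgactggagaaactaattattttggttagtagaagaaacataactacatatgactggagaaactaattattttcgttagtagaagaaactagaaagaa

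HAI2 held 4 ACGTG matches, beginning 239, 165, 160 and 12 bases before the start, and RD29B also held 4, at 143, 61, 38 and 10 bases, with a CCGAC between them. DFR held 2, at 157 and 14 bases. These are matches of letters and were not tested as binding sites.

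Genes of dehydrins, LEA proteins and the RD, COR and KIN families, which protect proteins and membranes in drying cells, rose almost throughout. Of 18 members 15 rose and 0 fell, 11 of them at least 2-fold, with a median of 2.01. Without stress replicate 1, 12 rose. The number was 13 without control replicate 2 or 3, without stress replicate 2 or in the ahl10-1 libraries alone. It was 16 with DESeq2 or without stress replicate 3. COR15A, a chloroplast protein that stabilises membranes in cold and drought, was at 6.94, 4.42 and 3.53 CPM in control and 94.4, 63.1 and 70.1 CPM under stress (log2 fold change 3.93, SE 0.24, adjusted p = 2.7e-06). Its neighbour COR15B was at 7.82, 4.37 and 3.74 CPM in control and 50.1, 37.6 and 49.1 CPM under stress (log2 fold change 3.10, SE 0.26, adjusted p = 1.9e-05). RD20, a caleosin, was even among replicates, at 5.03, 3.63 and 4.22 CPM in control and 38.6, 43.5 and 43.1 CPM under stress (log2 fold change 3.28, SE 0.17, adjusted p = 7.3e-07). The dehydrin gene RAB18 was at 12.3, 6.26 and 10.2 CPM in control and 151, 90.7 and 41.0 CPM under stress (log2 fold change 3.30, SE 0.48). RD29B, another member of the list, was at 6.06, 1.98 and 4.39 CPM in control and 58.2, 32.4 and 19.2 CPM under stress (log2 fold change 3.14, SE 0.57). RD29A (log2 fold change 2.26, SE 0.21, adjusted p = 2.7e-05) and KIN2 (log2 fold change 1.76, SE 0.21, adjusted p = 1.6e-04) rose less. The abundant dehydrin genes changed least, with ERD14 at 0.40 and COR47 at 251, 234 and 266 CPM in control and 273, 232 and 175 CPM under stress without a call.

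The levels of these protective genes under stress differed between replicates. In 12 of the 18 protective genes stress replicate 1 was the highest and stress replicate 3 the lowest of the 3 stress libraries, as in 5211 of all 22604 tested genes (23.1%) and in 850 of the 3216 that rose (26.4%). KIN1 is the clearest case, at 45.3, 24.6 and 7.98 CPM under stress and 2.17, 2.75 and 1.90 CPM in control (log2 fold change 3.51, SE 0.57). The same order held in 7 of 9 PP2C genes and in 12 of 22 genes of dehydration transcription factors. In the glucosinolate and light-harvesting lists the order was the reverse in 7 of 11 and 16 of 22 genes, as in 4804 of all tested genes (21.3%). Control replicate 1 was the highest control library in 11 of the 18 protective genes and in 8 of 9 PP2C genes, beside 8733 of all tested genes (38.6%). Levels under stress alone therefore do not give the size of the response in a replicate. What separates the stress libraries was not tested.

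**Figure D3:**
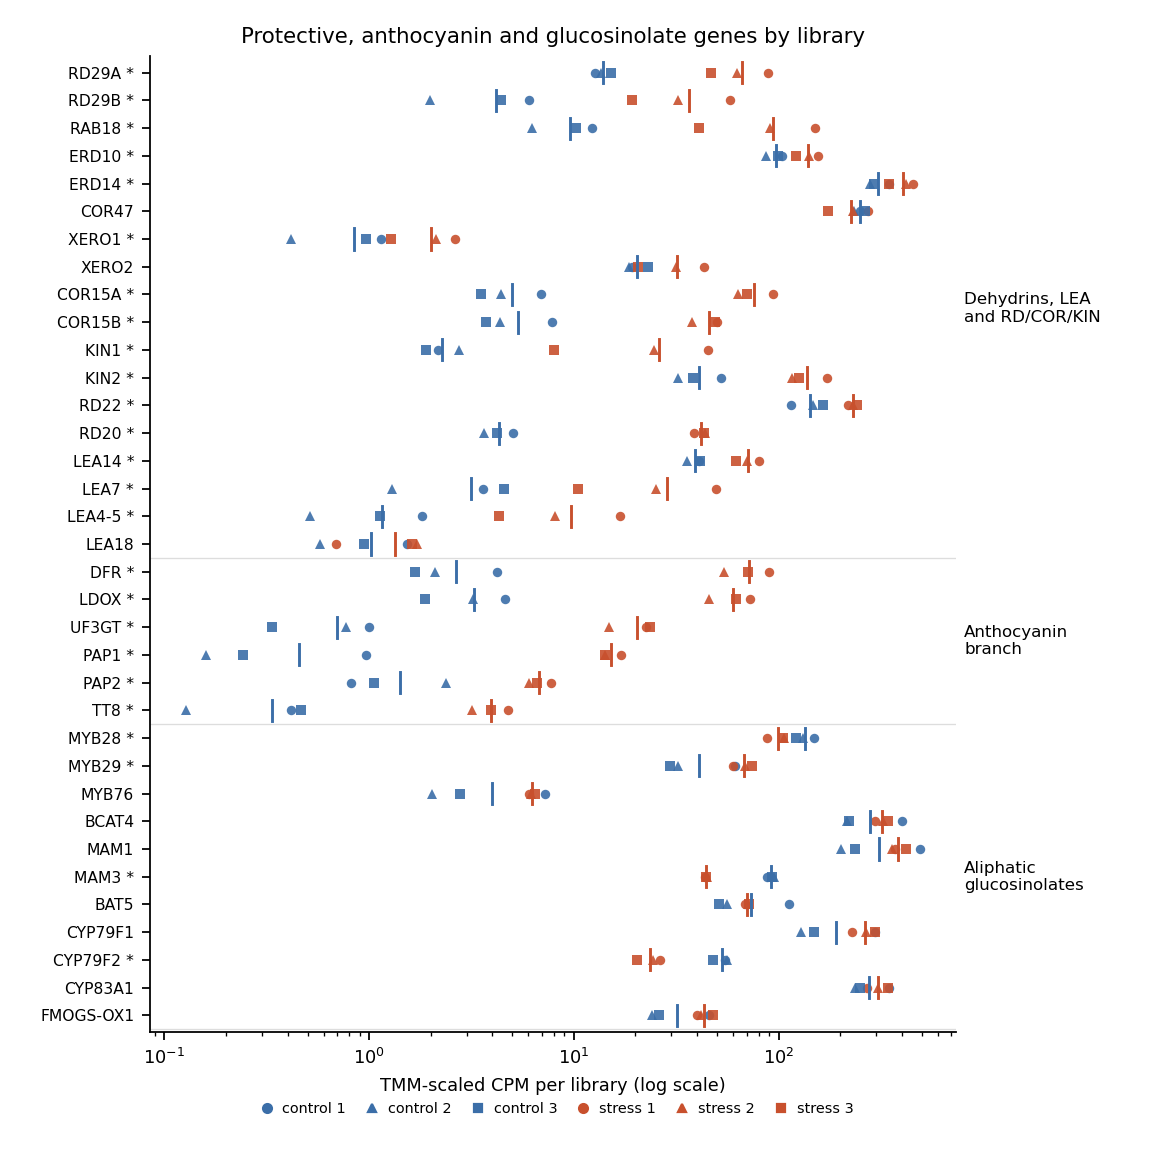
Level of protective, anthocyanin and aliphatic glucosinolate genes in the 6 ahl10-1 libraries (x axis, TMM-scaled CPM, log scale), control in blue and stress in orange, with the replicate by marker shape and the group mean as a bar. Called genes carry a star. Stress replicate 1 (orange circles) lies highest in most protective genes, and control replicate 1 (blue circles) lies above the other controls in most glucosinolate genes.

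Transcription factors of dehydration split into a rising group and a group without a call. Of 23 genes 22 were tested, and 9 rose and 1 fell (median 0.56). HB7, an ABA-responsive homeodomain factor, was at 25.3, 19.6 and 20.2 CPM in control and 118, 111 and 91.5 CPM under stress (log2 fold change 2.298, SE 0.14, adjusted p = 1.5e-06). The NAC factor gene NAC032 was at 13.1, 13.1 and 12.6 CPM in control and 38.8, 32.0 and 33.0 CPM under stress (log2 fold change 1.42, SE 0.13, adjusted p = 1.9e-05), and its relative ATAF1 rose by 0.70 (adjusted p = 5.9e-04). HB12 (1.24), HSFA6B (1.201) and CBF3 (1.71) rose too. HSFA3, a heat shock factor downstream of DREB2A, was the 1 called to fall, at 6.45, 7.87 and 8.16 CPM in control and 1.58, 2.67 and 3.57 CPM under stress (log2 fold change -1.53, SE 0.24, adjusted p = 7.6e-04). Of the 22 tested members 13 had a positive and 9 a negative log2 fold change. A total of 3 were called lower with the replicate block in the ahl10-1 libraries or without WT control replicate 1, and 2 with the block in all 12 libraries. With the block in the ahl10-1 libraries, the others were CBF2 (-1.97, adjusted p = 0.0069) and MYB44 (-0.49, adjusted p = 0.014). RD26, a NAC factor of the same group, did not pass the test, at 14.9, 6.93 and 11.5 CPM in control and 24.3, 15.01 and 12.02 CPM under stress. DREB2A, which binds the dehydration response element, did not either, at 5.78, 4.66 and 7.75 CPM in control and 11.5, 8.50 and 6.72 CPM under stress.

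Among chaperone genes of heat stress the small heat shock proteins rose from low levels. Of 11 members 6 rose and 0 fell (median 1.41). HSP22 was at 0.149, 0.0640 and 0.0930 CPM in control and 1.84, 1.74 and 0.794 CPM under stress (log2 fold change 3.80, SE 0.42, adjusted p = 6.9e-05). HSP23.6 was at 0.119, 0.0640 and 0.0186 CPM in control and 0.643, 0.806 and 0.656 CPM under stress (log2 fold change 3.29, SE 0.52, adjusted p = 7.8e-04, and 3.98 without control replicate 1). HSP17.4 was at 1.34, 1.04 and 0.502 CPM in control and 4.13, 3.52 and 5.37 CPM under stress (log2 fold change 2.16, SE 0.28, adjusted p = 2.2e-04). All called members stayed under 6 CPM. The more abundant HSP101 (-0.20) and HSP90.1 (0.43) were not called, and with the replicate number as a block in the ahl10-1 libraries their adjusted p was 0.050 and 0.0026, just under the threshold for HSP101.

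Proline genes moved toward synthesis and away from breakdown at the first enzyme of each route. Of 9 genes 5 rose and 2 fell. In the ahl10-1 libraries alone, without control replicate 1 or 2, or without any stress library, 4 rose. Without control replicate 2 or stress replicate 3, 3 fell. P5CS1, the rate-limiting enzyme of proline synthesis under stress, was at 91.8, 66.5 and 69.6 CPM in control and 836, 859.8 and 888 CPM under stress (log2 fold change 3.50, SE 0.15, adjusted p = 2.2e-07), and its groups stood far apart with little spread under stress. P5CR (0.42), P5CS2 (0.27) and OAT (log2 fold change 0.60, SE 0.066, adjusted p = 5.9e-05), which feed or complete the route, rose by less than 2-fold. PRODH1, which starts proline breakdown in mitochondria, was at 137, 130.2 and 219.6 CPM in control and 42.9, 37.9 and 44.6 CPM under stress (log2 fold change -1.96, SE 0.19, adjusted p = 3.5e-05). PRODH2 was at 5.87, 4.95 and 4.43 CPM in control and 1.77, 2.04 and 1.81 CPM under stress (log2 fold change -1.44, SE 0.17, adjusted p = 1.2e-04). P5CDH, the second enzyme of breakdown, rose (log2 fold change 0.79, SE 0.067, adjusted p = 1.0e-05). The transporter genes PROT1 (-0.20) and PROT2 (-0.11) were not called.

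Of the 6 genes of galactinol and raffinose, sugars that protect cells from drying, 4 rose and 1 fell. GOLS2, a galactinol synthase of drought, was at 7.92, 5.78 and 4.39 CPM in control and 48.6, 59.7 and 45.8 CPM under stress (log2 fold change 3.08, SE 0.23, adjusted p = 7.9e-06). GOLS4 (log2 fold change 1.59, SE 0.21, adjusted p = 2.8e-04), GOLS1 (log2 fold change 0.65, SE 0.084, adjusted p = 1.8e-04) and the raffinose synthase RS5 (log2 fold change 0.55, SE 0.091, adjusted p = 9.9e-04) rose less. RS4, a stachyose and raffinose synthase, moved the other way but stood under 1 CPM in every library (log2 fold change -1.74, SE 0.33, adjusted p = 0.0022).

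Lipid transfer and wax genes went in both directions: of 15 genes 14 were tested, and 5 rose and 5 fell. Without control replicate 3, stress replicate 1 or stress replicate 2, 3 fell. Beside LTP4, the gene LTP3 was at 8.35, 4.67 and 5.08 CPM in control and 106, 87.1 and 35.1 CPM under stress (log2 fold change 3.65, SE 0.39, adjusted p = 1.2e-04). LTP2 rose by 1.81. Among the wax genes, CER1, which forms alkanes, was at 23.2, 25.9 and 26.0 CPM in control and 80.3, 92.8 and 99.5 CPM under stress (log2 fold change 1.86, SE 0.11, adjusted p = 1.2e-06). WSD1, a wax ester synthase, rose by 1.23. KCS6, the condensing enzyme that elongates wax fatty acids, was at 245, 282 and 334 CPM in control and 146, 161 and 161 CPM under stress (log2 fold change -0.88, SE 0.11, adjusted p = 1.6e-04). CER2, its partner, was at 45.9, 52.3 and 59.7 CPM in control and 27.0, 30.0 and 31.2 CPM under stress (log2 fold change -0.84, SE 0.12, adjusted p = 4.0e-04). CER3, ABCG12 and LTPG1 also fell, with log2 fold changes of -0.40, -0.32 and -0.39.

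Genes of the late, anthocyanin branch of the flavonoid pathway rose strongly, and the early genes little. Of 14 members 8 rose and 0 fell (median 0.94). DFR, the first enzyme of the branch, was at 4.23, 2.096 and 1.67 CPM in control and 90.14, 54.1 and 71.3 CPM under stress (log2 fold change 4.73, SE 0.46, adjusted p = 7.3e-05). LDOX, the next, was at 4.62, 3.23 and 1.88 CPM in control and 72.6, 45.5 and 62.0 CPM under stress (log2 fold change 4.197, SE 0.43, adjusted p = 1.1e-04). The glucosyltransferase gene UF3GT was at 0.997, 0.768 and 0.335 CPM in control and 22.4, 14.8 and 23.55 CPM under stress (log2 fold change 4.82, SE 0.51, adjusted p = 1.1e-04). Their activators rose with them. The MYB gene PAP1 was at 0.968, 0.160 and 0.242 CPM in control and 17.0, 14.3 and 14.2 CPM under stress (log2 fold change 5.01, SE 0.52, adjusted p = 7.2e-05), with control replicate 1 the highest control library, and its log2 fold change without that library was 6.24. TT8, a bHLH partner of PAP1, was at 0.417, 0.128 and 0.465 CPM in control and 4.76, 3.17 and 3.94 CPM under stress (log2 fold change 3.56, SE 0.40, adjusted p = 7.0e-05). Of the early genes F3H rose (0.90), while CHS (0.39), CHI (0.10) and the flavonol gene FLS1 (0.12) were not called.

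The jasmonate pathway rose at its synthesis and output genes, while its repressor genes were without a call. Of 23 members 11 rose and 0 fell (median 0.49), and 14 rose without control replicate 1. LOX2, the lipoxygenase that starts synthesis in leaves, was at 142, 179 and 156 CPM in control and 1323, 1278 and 1640.4 CPM under stress (log2 fold change 3.15, SE 0.28, adjusted p = 1.9e-05). AOC2, a later enzyme of the plastid, was at 71.6, 61.1 and 64.6 CPM in control and 263, 194 and 226 CPM under stress (log2 fold change 1.79, SE 0.18, adjusted p = 3.8e-05). Output genes rose between 5-fold and 11-fold, with little spread under stress. VSP2, a storage protein and phosphatase, was at 86.9, 79.0 and 73.1 CPM in control and 727, 743 and 781 CPM under stress (log2 fold change 3.24, SE 0.16, adjusted p = 4.2e-07). Its close relative VSP1 was at 63.5, 52.7 and 49.0 CPM in control and 315, 321 and 321 CPM under stress (log2 fold change 2.53, SE 0.22, adjusted p = 1.9e-05). The aminotransferase gene CORI3 was at 15.4, 15.7 and 19.8 CPM in control and 171, 177 and 193 CPM under stress (log2 fold change 3.41, SE 0.26, adjusted p = 1.0e-05). Of the JAZ repressor genes, 0 of the 9 in the list were called. JAZ7, at 3.95, 0.384 and 0.316 CPM in control and 0.774, 0.648 and 0.294 CPM under stress, and JAZ8, at 1.64, 0.208 and 0.149 CPM in control and 0.0876, 0.190 and 0.138 CPM under stress, were far higher in control replicate 1 than in any other library.

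Genes of salicylic acid defence leaned downward, with calls about as frequent as over all tested genes (27.8%). Of 19 genes 18 were tested, and 1 rose and 4 fell. A negative log2 fold change was measured for 16 and a positive one for 2 (median -0.32). With DESeq2, in the ahl10-1 libraries alone or with the replicate block there, 6 fell. Without control replicate 1 or 3 or stress replicate 1 or 2, 3 fell. WRKY54 was at 5.58, 6.48 and 5.41 CPM in control and 1.23, 1.69 and 2.07 CPM under stress (log2 fold change -1.81, SE 0.20, adjusted p = 5.4e-05). ALD1, an enzyme of pipecolic acid synthesis, was at 0.268, 0.768 and 0.446 CPM in control and 0.0876, 0.0790 and 0.0345 CPM under stress (log2 fold change -2.82, SE 0.61, adjusted p = 0.0050), and FMO1, the next enzyme of that route, fell by 1.87 (adjusted p = 0.0076). WRKY70 was at 36.1, 18.9 and 39.4 CPM in control and 8.91, 9.76 and 8.77 CPM under stress (log2 fold change -1.78, SE 0.47, adjusted p = 0.019). Leaving out control replicate 1 or 3, or any stress library, removed its call (adjusted p up to 0.067). PR2, a glucanase gene, moved the other way, at 0.447, 0.192 and 0.353 CPM in control and 4.26, 2.67 and 3.94 CPM under stress (log2 fold change 3.44, SE 0.63, adjusted p = 0.0023). ICS1, the synthesis gene, had no call, at 13.3, 16.8 and 16.9 CPM in control and 14.9, 14.3 and 14.7 CPM under stress.

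Growth hormone genes fell more often than they rose. Of 12 Aux/IAA genes, early markers of auxin response, 8 fell and 0 rose (median -0.60), and 6 fell without control replicate 1. IAA19 was at 11.5, 9.73 and 10.4 CPM in control and 4.75, 3.98 and 4.08 CPM under stress (log2 fold change -1.31, SE 0.15, adjusted p = 9.0e-05) and IAA3 at 46.9, 40.8 and 41.5 CPM in control and 22.4, 22.0 and 19.6 CPM under stress (log2 fold change -1.01, SE 0.11, adjusted p = 4.7e-05). IAA6 was at 1.77, 1.104 and 2.14 CPM in control and 0.497, 0.284 and 0.207 CPM under stress (log2 fold change -2.32, SE 0.43, adjusted p = 0.0019). IAA2 (-0.99) and IAA7 (-0.52) fell less. In 20 gibberellin and brassinosteroid genes 7 fell and 1 rose (median -0.30). BR6OX1, a late brassinosteroid synthesis enzyme, was at 5.27, 5.70 and 4.24 CPM in control and 2.19, 1.90 and 1.62 CPM under stress (log2 fold change -1.41, SE 0.22, adjusted p = 6.3e-04). The gibberellin inactivation genes GA2OX1 (log2 fold change -1.78, SE 0.38, adjusted p = 0.0046) and GA2OX8 (log2 fold change -1.84, SE 0.39, adjusted p = 0.0047) fell, the latter by 2.49 without stress replicate 1. The DELLA repressor gene RGA fell by 0.42 (adjusted p = 5.9e-04), and its relative RGL2 rose, from 7.95, 11.7 and 7.53 to 13.5, 13.6 and 14.3 CPM (log2 fold change 0.61, SE 0.14, adjusted p = 0.0069).

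Expansin, cellulose synthase and mitotic genes showed no general fall. Of 17 expansin and cellulose synthase genes 7 rose and 2 fell, and 4 fell without control replicate 1. With the replicate block 4 fell in the ahl10-1 libraries and 2 in all 12 libraries. The secondary wall synthases CESA4, CESA7 and CESA8 rose together. CESA4 was at 37.5, 33.4 and 33.4 CPM in control and 67.4, 59.7 and 49.8 CPM under stress (log2 fold change 0.76, SE 0.10, adjusted p = 2.4e-04), and the log2 fold changes of CESA7 and CESA8 were 0.71 and 0.74. Those of the primary wall differed: CESA2 fell (log2 fold change -0.32, SE 0.067, adjusted p = 0.0043), CESA6 fell by 0.27 and lost its call under 5 alternatives (adjusted p up to 0.066), and CESA1 (0.027) was not called. The expansin genes EXPA10 (log2 fold change 0.95, SE 0.16, adjusted p = 0.0011) and EXPA4 (log2 fold change 0.55, SE 0.098, adjusted p = 0.0015) rose. Of 13 mitotic genes 3 rose by small amounts: CDKB2;2 (log2 fold change 0.33, SE 0.08, adjusted p = 0.0099), CYCB2;1 (0.45) and CYCB1;1 (0.39). CYCB2;1 was not called without control replicate 2 or 3 or without any stress library (adjusted p up to 0.080). Without control replicate 3 or stress replicate 3 a single mitotic gene was called. CYCB1;1 was not called with the replicate number as a block in the ahl10-1 libraries (adjusted p = 0.080).

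Water channel genes fell in part. Of 18 aquaporins 6 fell and 1 rose (median -0.23). With replicate number as a block 9 fell and 2 rose in the ahl10-1 libraries, and 8 fell and 1 rose in all 12 libraries. TIP2;1 was at 905, 725 and 1124 CPM in control and 284, 278 and 333 CPM under stress (log2 fold change -1.62, SE 0.15, adjusted p = 1.6e-05). PIP1;5, of the plasma membrane, was at 264, 222 and 323 CPM in control and 109.5, 113 and 123 CPM under stress (log2 fold change -1.22, SE 0.12, adjusted p = 2.7e-05). PIP1;3 (log2 fold change -0.80, SE 0.11, adjusted p = 4.0e-04), TIP1;2 (-0.61), TIP1;1 (-0.69) and PIP2;6 (-0.49) fell less. PIP2;5 moved the other way, at 16.6, 11.9 and 10.7 CPM in control and 30.0, 25.6 and 27.8 CPM under stress (log2 fold change 1.09, SE 0.15, adjusted p = 4.0e-04).

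Sugar transporters of the SWEET family went in both directions, with 5 of 12 down and 3 up. SWEET15, known from senescing leaves, was at 0.700, 0.720 and 1.04 CPM in control and 29.8, 31.1 and 22.1 CPM under stress (log2 fold change 5.09, SE 0.45, adjusted p = 3.7e-05). SWEET4 was at 0.610, 0.416 and 0.372 CPM in control and 6.44, 4.82 and 5.25 CPM under stress (log2 fold change 3.55, SE 0.26, adjusted p = 4.2e-06). SWEET13, a sucrose carrier, was at 3.81, 5.54 and 3.83 CPM in control and 11.8, 13.5 and 10.97 CPM under stress (log2 fold change 1.46, SE 0.18, adjusted p = 1.2e-04). In all of these the stress libraries lay above the control libraries. SWEET11, which loads the phloem, was at 167, 225 and 273 CPM in control and 115, 111 and 131 CPM under stress (log2 fold change -0.90, SE 0.15, adjusted p = 0.0011). SWEET12, its partner, was without a call at 69.8, 76.6 and 71.2 CPM in control and 66.8, 70.4 and 81.5 CPM under stress. SWEET16, of the vacuole, was at 13.1, 10.0 and 12.6 CPM in control and 5.64, 5.69 and 6.58 CPM under stress (log2 fold change -0.995, SE 0.12, adjusted p = 8.9e-05), and SWEET2, also of the vacuole, fell by 1.49.

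Genes of nitrate uptake and reduction fell. Of 12 nitrate and iron genes 4 fell and 0 rose (median -0.79), and all 4 are of nitrate uptake and reduction. The nitrate reductase gene NIA1 was at 209, 190.0 and 212 CPM in control and 115, 108 and 72.3 CPM under stress (log2 fold change -1.05, SE 0.18, adjusted p = 0.0014), and its partner NIA2 fell as far (log2 fold change -0.99, SE 0.16, adjusted p = 9.1e-04). The nitrite reductase gene NIR1 (log2 fold change -0.67, SE 0.096, adjusted p = 4.0e-04) and the transporter gene NRT1.1 (log2 fold change -0.62, SE 0.13, adjusted p = 0.0050) fell less. With the replicate block in the ahl10-1 libraries 7 fell and 1 rose, and with the block in all 12 libraries 5 fell and 0 rose. Without WT control replicate 1, and in the ahl10-1 libraries alone, 6 fell and 1 rose. The iron transporter gene IRT1 was not called, at 15.2, 18.6 and 16.5 CPM in control and 29.6, 31.2 and 21.1 CPM under stress (log2 fold change 0.71, SE 0.46, adjusted p = 0.29). It was called higher with the block in the ahl10-1 libraries (adjusted p = 0.0063) but not with the block in all 12 libraries. FRO2, the ferric reductase, was not called in the main fit or with the block in the ahl10-1 libraries, at 10.09, 12.5 and 12.1 CPM in control and 18.1, 16.9 and 12.1 CPM under stress. The iron deficiency factors BHLH38 (-1.37), BHLH39 (-1.12) and BHLH100 (-1.14) were not called. With the block in the ahl10-1 libraries their adjusted p was 0.012, 0.0016 and 0.025.

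Light-harvesting and Rubisco genes leaned downward with few calls. Of 22 members 2 fell and 0 rose, and 21 had a negative log2 fold change (median -0.31). LHCA1 was at 2947, 2953 and 4115 CPM in control and 2233, 2014 and 2355 CPM under stress (log2 fold change -0.60, SE 0.15, adjusted p = 0.0100). LHCB1.4 was at 2049, 1203 and 2616 CPM in control and 1114, 798 and 1011 CPM under stress (log2 fold change -1.01, SE 0.28, adjusted p = 0.019). The count depended on the fit: 11 fell with the replicate block in the ahl10-1 libraries and 3 with the block in all 12 libraries. It was 8 without control replicate 1, 5 with DESeq2 and 4 without stress replicate 3. Without control replicate 3, without stress replicate 2 or in the ahl10-1 libraries alone it was 1. The Rubisco small subunit gene RBCS1B, at 1110.2, 2136 and 2339.6 CPM in control and 777, 966 and 1477 CPM under stress, was not called (adjusted p = 0.064). With the block in the ahl10-1 libraries its adjusted p was 0.0066. Control replicate 1 was the lowest control library in 16 of the 22, and stress replicate 3 the highest stress library in 21. Of 105 tested chloroplast-encoded genes 9 fell and 0 rose (median -0.71), a smaller share of falls than the 13.5% over all tested genes. Libraries were made from oligo-dT selected RNA. Chloroplast genes took 0.487%, 0.122% and 0.506% of reads in control and 0.148%, 0.102% and 0.464% under stress.

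Of 11 genes of chlorophyll breakdown and senescence 10 were tested, and 4 rose and 1 fell. A total of 3 were called without control replicate 3, stress replicate 1 or stress replicate 2. PAO, an oxygenase of chlorophyll breakdown, was at 41.5, 47.9 and 52.2 CPM in control and 62.4, 68.1 and 68.1 CPM under stress (log2 fold change 0.49, SE 0.097, adjusted p = 0.0032). PPH, which removes the phytol tail, was at 50.7, 50.3 and 54.7 CPM in control and 69.2, 77.2 and 76.4 CPM under stress (log2 fold change 0.52, SE 0.074, adjusted p = 4.0e-04). NYE2 rose by 1.25 (adjusted p = 0.0011) and NYE1 by 0.37. NYC1, a chlorophyll b reductase, fell by 0.43. The calls of NYE1 and NYC1 were lost without control replicate 3, stress replicate 1 or stress replicate 2, and that of NYE1 also without control replicate 1 (adjusted p up to 0.12). SAG12, a marker of late senescence, had 0 reads in all 6 libraries.

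Aliphatic glucosinolate genes differed widely among control libraries. Of 11 members 1 rose and 3 fell, and without control replicate 1 8 rose and 3 fell. In 7 of the 11 control replicate 1 stood more than 1.5 times above both other controls, as in 1050 of the 22604 tested genes (4.6%). CYP79F1, a first enzyme of the pathway, was at 297, 128 and 149 CPM in control and 229, 269 and 295 CPM under stress and was not called. Its neighbour CYP79F2 was at 54.9, 55.9 and 47.7 CPM in control and 26.3, 24.5 and 20.3 CPM under stress (log2 fold change -1.16, SE 0.13, adjusted p = 6.6e-05). MAM3, which elongates the methionine side chain, was at 87.9, 95.5 and 93.2 CPM in control and 44.0, 44.5 and 44.3 CPM under stress (log2 fold change -1.06, SE 0.097, adjusted p = 1.8e-05), with little spread in either group. The regulator genes MYB28 (log2 fold change -0.43, SE 0.089, adjusted p = 0.0037) and MYB29 (log2 fold change 0.72, SE 0.22, adjusted p = 0.035) went opposite ways. MYB29 was at 61.4, 32.3 and 29.4 CPM in control and 59.9, 68.7 and 74.5 CPM under stress, and rose by 1.13 without control replicate 1. It was not called under 8 alternatives, among them the replicate block (adjusted p = 0.18) and each fit without control replicate 2 or 3 or any stress library.

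Clock genes moved by less than 2-fold. Of 11 members 3 rose and 3 fell, and without control replicate 3 2 rose and 1 fell. ELF4, of the evening complex, was at 30.1, 32.6 and 34.1 CPM in control and 53.1, 47.3 and 50.8 CPM under stress (log2 fold change 0.64, SE 0.078, adjusted p = 1.3e-04). Its partner LUX fell (log2 fold change -0.32, SE 0.071, adjusted p = 0.0058), a call not made on RPKM. The morning gene LHY was at 116, 159 and 192 CPM in control and 64.6, 102 and 100.5 CPM under stress (log2 fold change -0.81, SE 0.21, adjusted p = 0.014) and was not called without control replicate 3 (adjusted p = 0.061). GI rose by 0.41 and lost its call without control replicate 2 or 3 or without any stress library (adjusted p up to 0.11). PRR9 was at 6.80, 5.71 and 7.31 CPM in control and 12.2, 13.2 and 11.6 CPM under stress (log2 fold change 0.90, SE 0.16, adjusted p = 0.0017), and 19.9% of its reads were multi-mapped.

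Markers of seedling parts were present throughout. Of 14 root markers 2 rose and 1 fell. With the replicate block 4 rose and 0 fell in the ahl10-1 libraries, and 2 rose and 1 fell in all 12 libraries. EXPA7, of root hairs, was at 2.41, 3.15 and 3.50 CPM in control and 9.81, 12.1 and 10.07 CPM under stress (log2 fold change 1.82, SE 0.41, adjusted p = 0.0077). MYB36, of the endodermis, was at 4.66, 6.07 and 5.32 CPM in control and 8.75, 9.22 and 8.46 CPM under stress (log2 fold change 0.72, SE 0.16, adjusted p = 0.0068). PYK10, an abundant root glucosidase gene, was not called, at 3239, 3352 and 3382 CPM in control and 3498, 3873 and 2787 CPM under stress. The fall of SCR (-0.20) was not called under 11 alternatives (adjusted p up to 0.23, and 0.053 with the replicate block in the ahl10-1 libraries). Without WT control replicate 3, 4 root markers rose and 2 fell. The summed level of the root markers was 1616 to 1761 RPKM in control and 1458 to 2138 RPKM under stress. Of 6 guard cell lineage markers MYB60 fell (log2 fold change -0.89, SE 0.12, adjusted p = 2.1e-04) and EPF1 rose (0.60), a call lost under 9 alternatives (adjusted p up to 0.12). Of 6 seed and flower markers 3 were tested. AG fell (log2 fold change -2.29, SE 0.57, adjusted p = 0.012, -2.92 without stress replicate 2) and their sum stayed between 0.347 and 1.56 RPKM. In whole seedlings fewer cells of a type and less RNA per cell cannot be told apart, and the part of tissue makeup in the changes above was not tested.

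**Figure D4:**
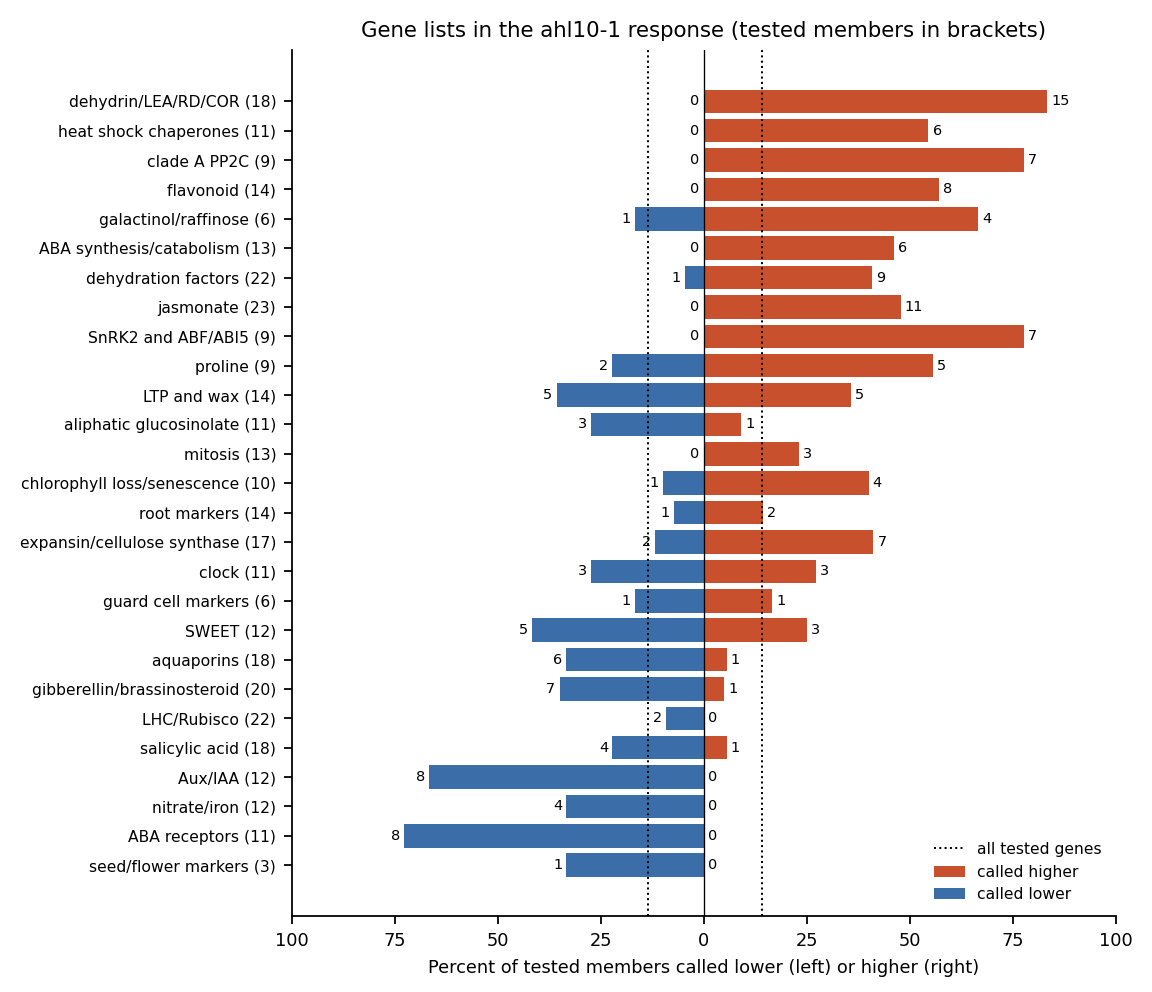
Share of the tested members of each gene list that were called higher (orange, to the right) or lower (blue, to the left) under stress in ahl10-1, ordered by median log2 fold change, with counts at the bar ends. Dotted lines mark the shares over all tested genes, 14.2% higher and 13.5% lower. The dehydrin/LEA/RD/COR bar reaches farthest to the right, followed by the equal PP2C and SnRK2/ABF bars, and the receptor and Aux/IAA bars farthest to the left.

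A difference between the ahl10-1 response and that of WT was tested for each gene as the interaction of genotype and treatment. It was called for 0 of 22604 genes by edgeR and for 1 by DESeq2, and 320 genes (1.42%) had an unadjusted p under 0.05. The smallest p among genes with at least 5 CPM was that of GOLS1, which changed by 0.65 in ahl10-1 and 0.12 in WT, a difference of 0.53 (SE 0.12, unadjusted p = 8.0e-04). PRR9 changed by 0.90 and 0.0034, a difference of 0.89 (SE 0.23, unadjusted p = 0.0020). CDF3, a DOF factor of a group that delays flowering, was not called in ahl10-1 (0.08) and changed by -0.32 in WT, a difference of 0.40 (SE 0.11, unadjusted p = 0.0039). AT1G52200 and AT5G25240 differed by 0.42 (SE 0.11, unadjusted p = 0.0029) and -0.77 (SE 0.22, unadjusted p = 0.0048). The adjusted p of each was 1.0.

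Some pathways held several such genes. In the jasmonate list 4 of 23 genes had an unadjusted p under 0.05, all with the larger change in ahl10-1. AOS, an early enzyme of jasmonate synthesis, changed by 0.45 in ahl10-1 and -0.038 in WT, a difference of 0.48 (SE 0.15, unadjusted p = 0.0070). AOC1 differed by 0.83 (SE 0.26, unadjusted p = 0.0096), VSP2 by 0.52 (SE 0.20, unadjusted p = 0.025) and VSP1 by 0.70 (SE 0.30, unadjusted p = 0.038). The iron uptake genes IRT1 and FRO2 had changes of 0.71 and 0.44 in ahl10-1 and -1.19 and -1.54 in WT, differences of 1.89 (SE 0.65, unadjusted p = 0.016) and 1.99 (SE 0.70, unadjusted p = 0.018). All fail the adjustment, so a difference between the genotypes was not shown for any of these genes. In WT 5478 genes (24.2%) were called for stress, against 6277 in ahl10-1, and these counts were not tested against each other.

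**Figure D5:**
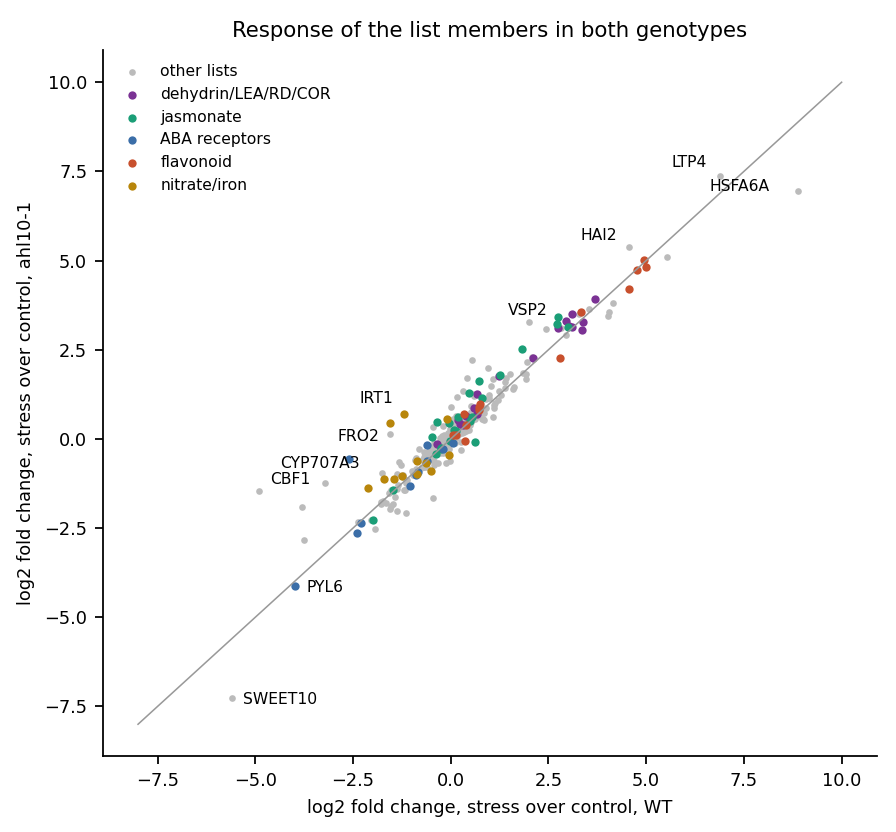
Change under stress of the tested list members in ahl10-1 (y axis) and in WT (x axis), both as log2 fold change, with 5 lists in colour and a line of equal change. Most members lie close to the line. IRT1 and FRO2 lie above it, at negative values in WT and positive values in ahl10-1, with no interaction call.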

How the data were processed

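Whole seedlings gave polyA-selected libraries from a strand-specific kit, per the labels' protocols. The submitters' processing notes name TAIR10, CASAVA, bcl2fastq 1.8.4, Bowtie2 and DESeq2, without their roles; the counter, the annotation and the use of strand are not given in the sources used here. For each library the authors deposited estimated counts of reads per gene, RPKM, gene length and the fraction of multi-mapped reads, per the file headers. Counts were not whole in 3.98% to 4.35% of genes of the ahl10-1 libraries and were rounded. The authors computed RPKM on a library total of which the reads in genes were 92.8% to 93.3%, as the deposited values imply. Multi-mapped reads, from the deposited fraction, were 1.25% to 2.16%. Symbols, biotypes, overlaps and promoter sequences came from RefSeq TAIR10.1, in which 32835 of 33602 identifiers matched.

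Counts of all 12 libraries, with 57996104 to 68555138 reads in genes, were fitted in edgeR 4.0.16 (R 4.3.3) with TMM scaling, filterByExpr (minimum count 10, minimum total 15), 4 group means, and robust quasi-likelihood estimation. That left 8 residual degrees of freedom. The common coefficient of biological variation came to 0.144. Standard errors are the log2 fold change over the square root of F. P-values were adjusted over the 22604 tested genes. The same code was tested on simulated counts. A count of 0 in a library allows up to 3 reads, for counting error only. The alternatives were other scaling, filters, DESeq2 1.42.0, the ahl10-1 libraries alone, a replicate block, limma 3.58.1 on log2 RPKM with a pseudocount of 1 or 0.1, multi-mapped reads taken out, no robust estimation, and leaving out each library.

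Replicate numbers come from the titles. In ahl10-1, the deviation of a control library from its group mean correlated with that of the same-numbered stress library at 0.112, 0.110 and 0.188 for replicates 1, 2 and 3. All exceed 0.1, so the numbers were taken to pair the samples, although no label states what a replicate number stands for. Between differently numbered libraries the correlations were -0.127 to -0.00704. The deviations within a group sum to 0, so these values depend on each other, and the pairing itself was not tested. The main fit of group means did not use this pairing. Its calls, SE and adjusted p therefore treat same-numbered libraries as independent. The pairing entered only as the replicate block, an alternative that changes calls. Where no libraries are named, the block is that of the fit of the ahl10-1 libraries alone, which has fewer libraries to estimate the spread from. In the ahl10-1 libraries alone 6787 genes were called with the block and 4985 without it.

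Named genes were AHL10, the 10 largest rises and falls among called genes with at least 5 CPM and no overlap of the groups, the 5 largest gains and losses in RPKM, up to 5 called members per list with the smallest p and those against the majority, the 5 smallest interaction p, and members needed to describe a pathway. The 27 lists (369 genes), the groups compared and the named genes' rule were chosen with earlier results of these data known, so no count of a list is independent evidence of its direction.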

Additional observations from a re-analysis of the deposited data

How the results depend on the processing

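The number of genes called for stress in ahl10-1 was 6277 and ranged from 4525 without ahl10-1 stress replicate 2 to 7271 with DESeq2, within 1.5 times throughout; over the fits without 1 library each it was 4525 to 6465. With the replicate block it was 6787 in the ahl10-1 libraries alone, where the fit without the block called 4985, and 6474 in all 12 libraries. Upward calls ranged from 2313 to 3321 and downward calls from 2212 to 3248 without 1 library each. The number with a change of at least 2-fold was 1649 and fell to 784 with limma on log2(RPKM + 1), a scale on which changes of low genes are smaller by construction; without 1 library each it was 1401 to 1689. The interaction was called for 0 genes except for 1 with DESeq2, and for 0 to 0 without 1 library each. AHL10 kept its call under all 24 alternatives, with log2 fold changes of 0.30 to 0.46 without 1 library each and 0.37 with either replicate block. Of 145 named genes 129 lost no call under any alternative in which they were tested, 16 lost a call under at least 1, and 0 reversed. Some genes of few reads, such as NCED9 and ALD1, were tested under 23 of the 24. Counts of 10 of the 27 lists moved by over 1.5 times under at least 1 alternative. The replicate block in the ahl10-1 libraries changed no call of a gene named above other than those given beside it. RPKM values move the median of all tested genes by at most 0.076 on the log2 scale, and other scalings by less. Leaving out a library leaves 2 in its group, and depth limits genes of few reads, such as SWEET10 under stress.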

Other observations

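Gene families outside the lists were counted by their symbols in the RefSeq table. They were chosen after the results were seen, so their counts are descriptions beside 14.2% of tested genes higher and 13.5% lower. Families counted but not described further were UMAMIT (7 higher and 9 lower of 41 tested) and WRKY (15 and 11 of 63). ERF (5 and 3 of 37), BBX (4 and 5 of 27) and CML (0 and 3 of 14) were counted too. Among SAUR genes, small auxin-induced transcripts of elongating tissue, 69 of 80 were tested, and 28 fell and 6 rose (median -0.38). Without control replicate 1, 16 fell, and without stress replicate 2, 17 fell. The number that rose was 3 without stress replicate 1 or 2. SAUR68 was at 12.8 ± 1.68 CPM in control and 7.27 ± 0.732 CPM under stress (mean ± SD, n = 3; log2 fold change -0.81, SE 0.13, adjusted p = 7.9e-04). Many SAUR genes lie in tandem arrays with similar sequence. Among XTH genes, whose enzymes cut and rejoin wall xyloglucan, 12 of 30 fell and 4 rose (median -0.38), and 2 rose without stress replicate 1 or 2 or control replicate 3. XTH4 was at 368 ± 55.0 CPM in control and 139 ± 6.57 CPM under stress (log2 fold change -1.40, SE 0.10, adjusted p = 3.8e-06) and XTH6 at 107 ± 33.3 CPM in control and 25.8 ± 4.59 CPM under stress (log2 fold change -2.06, SE 0.23, adjusted p = 1.1e-04). Of 11 tested genes for RALF peptides, which signal through wall-sensing receptor kinases, 6 fell and 0 rose. Without stress replicate 2, 2 fell, and without control replicate 3 or stress replicate 3, 3 fell. RALFL33 was at 34.5 ± 6.35 CPM in control and 20.8 ± 1.44 CPM under stress (log2 fold change -0.73, SE 0.13, adjusted p = 0.0013). Of 37 tested CRK genes 10 fell and 5 rose, and 2 rose without stress replicate 2 or control replicate 3 and 3 without stress replicate 1. CRK29 was at 43.1 ± 4.73 CPM in control and 22.0 ± 1.08 CPM under stress (log2 fold change -0.97, SE 0.086, adjusted p = 1.4e-05).

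Families of conjugating enzymes leaned upward. Of 41 tested genes for glutathione transferases of the F and U classes 16 rose and 6 fell (median 0.28). GSTF12, needed to move anthocyanin to the vacuole, was at 2.26 ± 0.818 CPM in control and 44.0 ± 14.5 CPM under stress (log2 fold change 4.27, SE 0.37, adjusted p = 3.3e-05), and GSTU8 was at 38.5 ± 4.88 CPM in control and 82.1 ± 6.41 CPM under stress (log2 fold change 1.09, SE 0.10, adjusted p = 2.1e-05). Of 60 tested UGT glycosyltransferase genes 20 rose and 5 fell (median 0.18), and 9 fell with the replicate block in the ahl10-1 libraries and 8 without WT control replicate 1. UGT74E2, which glucosylates the auxin indole-3-butyric acid, was at 2.71 ± 0.667 CPM in control and 15.9 ± 3.41 CPM under stress (log2 fold change 2.55, SE 0.19, adjusted p = 5.1e-06), and UGT85A4 went the other way, at 19.2 ± 3.28 CPM in control and 4.86 ± 0.940 CPM under stress (log2 fold change -1.98, SE 0.17, adjusted p = 1.1e-05). Under all 24 alternatives the medians of these families kept their sign.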
